A study of Homo sapiens with 6 samples.

Results

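The cadherin superfamily, a family of calcium-dependent adhesion proteins, was described here in RKO cells, a human colorectal carcinoma line, through the genes whose symbols begin with PCDH, CDH, CDHR, DSC, DSG, FAT, CELSR or CLSTN. The rule found 33 of the 2885 genes in the deposited table. These were 1 alpha, 13 beta and 10 gamma protocadherins, together 24 clustered members, and 9 unclustered members. Total RNA was sequenced from 3 libraries labelled shNC, with a wild-type genotype, and 3 labelled shKMT5A, with the genotype given as a KMT5A knockdown. KMT5A encodes the enzyme that adds a single methyl group to lysine 20 of histone H4. The labels name no separate cultures, and the p-values given here reflect only the spread among these 6 libraries, which may be technical. In bulk RNA, fewer cells expressing a gene and less RNA per cell cannot be told apart.

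Cadherins are adhesion proteins that sit in the cell membrane and bind one another through repeated extracellular domains that need calcium. Most human protocadherins lie in alpha, beta and gamma arrays on chromosome 5. In the alpha and gamma arrays each variable first exon is spliced to constant exons at the end of the array, whereas each beta gene is a single-exon unit. In neurons each cell uses a few of these genes, chosen by their promoters, and the protein set on the cell surface lets a neuron tell its own branches from those of others. Classical cadherins bind catenins at adherens junctions, and desmogleins hold cells together at desmosomes.

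KMT5A itself went against its label. Its level in shNC was 1298, 1245 and 1307 normalized counts, and in the libraries labelled shKMT5A it was 4015, 3898 and 3297, 2.91-fold higher, so every direction below is that of the libraries labelled shKMT5A against shNC. If the labels of the groups were exchanged every direction would turn, and this was not tested. Reads in the table ranged from 1363382 to 1369655 per shNC library and from 1891460 to 1980866 per library labelled shKMT5A. The table held 7 of 22 genes that mark colon epithelium. Their summed level was 145314 to 158187 normalized counts in shNC and 46134 to 47684 in the libraries labelled shKMT5A, and KRT8, KRT18 and KRT19, keratins of simple epithelia, made up most of it. Of the 7 genes 4 were lower and 3 higher. The higher ones were AGR2, from a mean of 29.6 to 77.6, MUC2, from 0.973 to 10.9, and CDH17, from 0 to 4.10.

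The table holds only genes that passed the authors' thresholds for this same contrast. The smallest absolute log2 fold change in the authors' deposited table is 1.0002 and the largest adjusted p-value is 0.0499. The members' differences are therefore a description and support nothing by themselves. Among members, CDH24 lay nearest to the fold threshold, with a log2 fold change of -1.32 in the authors' deposited table, and PCDHGA7 lay nearest to the p threshold, with an adjusted p of 0.0332 there. Genes outside the thresholds were not analysed here.

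All 24 clustered protocadherins were lower in the libraries labelled shKMT5A, 14 of them at 0 in all 3 of those libraries, while the unclustered members divided into 7 that were higher and 2 that were lower. Every clustered member's groups were apart. Across all genes tested, 99.7% had groups that did not overlap, 42.5% with the lower values in the libraries labelled shKMT5A, and 6.24% of genes were at 0 in every library labelled shKMT5A. That is 180 genes, which can only be among the 1229 lower genes of the table. The clustered genes had a median shNC level of 15.4 normalized counts, against 49.97 over the whole table, and a gene at a low level reaches 0 after losing fewer reads. The clustered members summed to 404, 474 and 473 normalized counts over the shNC libraries and to 16.8, 17.4 and 15.9 in those labelled shKMT5A, a 27.0-fold lower sum. No clustered member was at 0 in any shNC library, and 53 of their 72 values in the libraries labelled shKMT5A were 0.

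**Figure D1:**
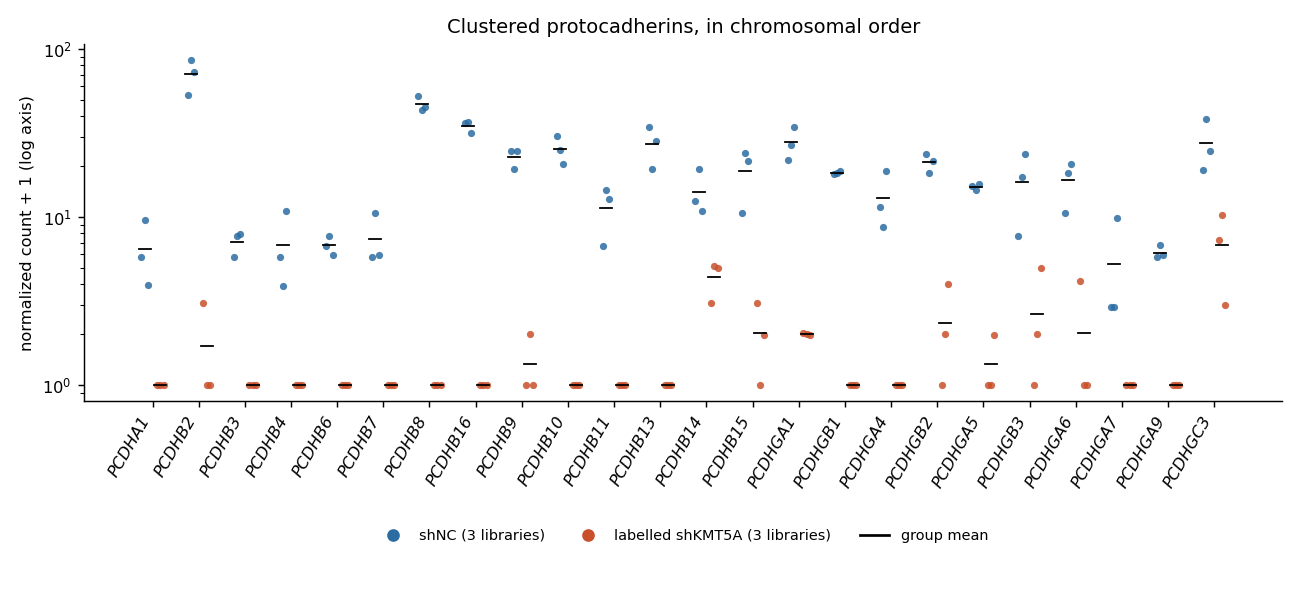
Normalized count plus 1, on a log axis, of the 24 clustered protocadherins in chromosomal order, with 1 point per library and a line at the mean of each group of 3. Within each gene all shNC points lie above all points of the libraries labelled shKMT5A, and 14 genes have all 3 of the latter at a count of 0.

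The clustered genes span chr5:140786136-141512981 in GRCh38. GENCODE 29 annotates 53 coding protocadherins there, of which 24, or 45.3%, were in the table. Of all 19951 coding genes 2036, or 10.2%, were in it. None of the 3 other coding genes inside the span was in the table. Within 1 Mb before the span 2 of 23 coding genes were in it, NRG2 and TMCO6, and within 1 Mb after it 0 of 12. Because every gene in the table had passed the authors' thresholds, these shares describe where selected genes lie. Unlisted protocadherins may have been unchanged or too low to test, and the table does not say which.

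The promoters of the clustered members were searched for letters that members of an array have in common. Most clustered protocadherin promoters contain a conserved element with the letters CGCT, which in mammals is bound by the insulator protein CTCF. RefSeq promoters of GRCh38.p14, running from 250 bases before to 50 bases after each annotated start, matched 26 of the 33 members and 22 of the 24 clustered ones. The sequences below are windows on the + strand around this element. They are shown for PCDHA1 as the single alpha member, for PCDHB2, PCDHB8, PCDHGB1 and PCDHGA1 as the members with the largest log2 fold changes of their arrays, for PCDHB13 because it shares the most sequence with PCDHB8, and for PCDHGC3 because it had the highest mean in the libraries labelled shKMT5A. Capitals mark the motif searched, which was GATGTCGCT for alpha, GGTGGCGCT for beta and GNGNCGCT for gamma genes, where N is any base.
PCDHA1, chr5:140786081-140786119: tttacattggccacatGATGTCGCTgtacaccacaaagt
PCDHB2, chr5:141094539-141094577: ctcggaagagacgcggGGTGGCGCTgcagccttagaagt
PCDHB8, chr5:141177772-141177810: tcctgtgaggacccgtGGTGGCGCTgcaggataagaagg
PCDHB13, chr5:141213860-141213898: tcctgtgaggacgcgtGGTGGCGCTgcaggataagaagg
PCDHGA1, chr5:141330399-141330436: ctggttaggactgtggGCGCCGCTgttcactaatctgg
PCDHGB1, chr5:141350021-141350058: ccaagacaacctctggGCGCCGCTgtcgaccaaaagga
PCDHGC3, chr5:141475876-141475913: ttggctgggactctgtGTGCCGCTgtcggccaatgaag

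These motifs were written after reading the promoters, so their presence in the members is no test. All 22 clustered members with a promoter held the motif of their own array: PCDHA1, 11 beta members and 10 gamma members. On either strand the alpha motif was in 0.128% of 27326 promoters, the beta motif in 0.618% and the gamma motif in 23.1%. The gamma letters also fit the last 8 bases of the beta motif, so all 11 beta members held both. The motifs were not particular to the listed genes, being in 9 of 13 alpha, 13 of 14 beta and 19 of 20 gamma promoters of the arrays. All 3 contain CGCT, which on its own was in 71.9% of all promoters and in all 4 unclustered members' promoters. The gamma motif was in 3 of those 4, so it does not separate clustered from unclustered members. The motif began 2 to 203 bases before the RefSeq start, with a median of 66.5 bases. GENCODE starts can differ, and in PCDHB14 and PCDHB16 the motif lies after the GENCODE start, inside the annotated gene. In PCDHB8 the motif runs across the GENCODE start. A match is a description and not a site or a cause, and binding of CTCF was not measured. For PCDHB2, the clustered member with the highest shNC level, the stretch before its GENCODE start is shown to place the element among its surroundings.
PCDHB2, chr5:141094365-141094577: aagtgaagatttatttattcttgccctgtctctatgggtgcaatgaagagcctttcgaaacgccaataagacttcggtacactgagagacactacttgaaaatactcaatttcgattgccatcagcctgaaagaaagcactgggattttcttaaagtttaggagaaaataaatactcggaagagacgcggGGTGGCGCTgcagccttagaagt

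PCDHA1 was the single alpha member in the table, of 15 coding alpha genes. It is the first variable gene of its array. It had 4.76, 8.66 and 2.95 normalized counts in shNC and no read in the libraries labelled shKMT5A, which made it at least 5.34-fold lower. Bounds of this kind set a group at 0 to a floor of 3 reads over its 3 libraries. They take the mean of the other group as measured and leave out its counting error. Only 41.7% of the exonic bases of PCDHA1 belong to no other gene, since the constant exons are annotated to every alpha gene and a further 398 bases lie under antisense genes. Its reads can thus come from other alpha genes, and the sources used here do not give how shared reads were counted.

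The beta array was lower in every listed member. Its 13 listed members, of 16 coding genes, summed to 288 ± 15.97 normalized counts in shNC and to 5.46 ± 0.719 in the libraries labelled shKMT5A (SD, n = 3), 52.7-fold lower. Beta protocadherins have the cadherin repeats of the other arrays without a shared constant cytoplasmic part. The missing 3, PCDHB1, PCDHB5 and PCDHB12, were not analysed here.

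PCDHB2 had 52.4, 84.7 and 71.7 normalized counts in shNC, the highest level per kb of own exon among clustered members. It had 2.09, 0 and 0 in the libraries labelled shKMT5A, all of it from 2 reads of the first library. The ratio was 102, with a 95% interval of 27.9 to 849 that covers counting error only. PCDHB8 had 51.4, 42.4 and 44.2 in shNC and no read in the libraries labelled shKMT5A, at least 45.0-fold lower. PCDHB16 had 35.2, 35.6 and 30.5 in shNC and 0 in all of the others, at least 33.1-fold lower. Both genes thus went from a level seen evenly in the 3 shNC libraries to no read at all. On the log2(value + 1) scale the fold changes were -5.57 ± 0.48 for PCDHB2, -5.55 ± 0.32 for PCDHB8 and -5.12 ± 0.32 for PCDHB16 (SE from limma).

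Several beta members in the middle and later part of the array showed the same picture at lower levels. PCDHB10 had 29.5, 24.1 and 19.7 normalized counts in shNC and 0 in the libraries labelled shKMT5A, at least 23.9-fold lower. PCDHB13 had 33.3, 18.3 and 27.5 in shNC and 0 in the others, at least 25.8-fold lower. PCDHB11 had 5.71, 13.5 and 11.8 in shNC and 0 in the others, at least 10.1-fold lower. All 3 of these were without a read in the libraries labelled shKMT5A, while PCDHB9 kept a single one. PCDHB9 had 23.8, 18.3 and 23.6 normalized counts in shNC and 0, 1.02 and 0 in the others, a ratio of 64.3 with a counting interval of 11.2 to 2577. PCDHB3, PCDHB4, PCDHB6 and PCDHB7, near the start of the array, had shNC means of 5.79 to 6.43 and no reads in the libraries labelled shKMT5A. Their bounds ran from at least 5.67-fold to at least 6.30-fold lower.

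PCDHB14 and PCDHB15, the last beta genes of the array, kept reads in the libraries labelled shKMT5A, as did PCDHB2 and PCDHB9 before them. PCDHB14 kept 10 reads there and PCDHB15 kept 3, beside 2 for PCDHB2 and 1 for PCDHB9. PCDHB14 had 11.4, 18.3 and 9.83 normalized counts in shNC and 2.09, 4.09 and 3.97 in the others. Reads were present in each of the 6 libraries, the groups did not overlap, and PCDHB14 had the smallest ratio among clustered members, 3.89-fold lower. PCDHB15 had 9.52, 23.1 and 20.6 in shNC and 2.09, 0 and 0.99 in the others, a ratio of 17.3 with a counting interval of 5.63 to 86.7. Its shNC libraries varied more than 2-fold among themselves.

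Sequence shared with other genes limits how reads of beta genes can be assigned. In 3.82% to 29.9% of the 100-base windows of a beta member the same sequence occurred in a transcript of another gene, with a median of 13.9%. In 10 of the 13 the gene that shared most was another beta gene, and in PCDHB2, PCDHB15 and PCDHB16 it was not. The highest share was that of PCDHB8, and the gene that shared the most windows with it was PCDHB13. The sources used here do not give how reads with several matches were counted. Values of single beta genes are therefore uncertain, although both PCDHB8 and PCDHB13 were at 0 in the libraries labelled shKMT5A. Use of the strand in counting is also unstated, and antisense genes are annotated over 620 bases of PCDHB2 and 815 bases of PCDHB16.

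Gamma members, 10 of 22 coding genes, summed to 157 ± 28.8 normalized counts in shNC and to 11.2 ± 0.943 in the libraries labelled shKMT5A (SD, n = 3), 13.99-fold lower. Variable gamma genes are of an A type and a B type, and the C type at the end of the array is used in neurons without the random choice of the others. Except for PCDHGC3, a C-type gene, the listed members lay between PCDHGA1 and PCDHGA9. They were 6 of the A type and 3 of the B type.

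PCDHGA1, the first gamma gene, had 21.0, 26.0 and 33.4 normalized counts in shNC and 1.05, 1.02 and 0.99 in the libraries labelled shKMT5A, 1 read in each. PCDHGB1 had 17.1, 17.3 and 17.7 in shNC and 0 in the others, at least 17.02-fold lower. PCDHGA4 had 10.5, 7.70 and 17.7 in shNC and 0 in the others, at least 11.7-fold lower. The even shNC level of PCDHGB1 contrasts with that of PCDHGA4, which differed more than 2-fold between libraries. PCDHGB2 had 22.9, 17.3 and 20.6 in shNC and 0, 1.02 and 2.98 in the others, 15.2-fold lower. PCDHGA5 had 14.3, 13.5 and 14.7 in shNC and 0, 0 and 0.99 in the others, a ratio of 41.6 with a counting interval of 7.09 to 1681.

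Of the remaining A-type and B-type genes PCDHGB3, PCDHGA6 and PCDHGA7 were uneven between libraries, and PCDHGA9 was not. PCDHGB3 had 6.67, 16.4 and 22.6 normalized counts in shNC and 0, 1.02 and 3.97 in the libraries labelled shKMT5A. Its lowest shNC and highest labelled shKMT5A values are the closest of any B-type gene here. PCDHGB3 had a log2 fold change of -2.76 ± 0.61 (SE). It became -3.36 without the third library labelled shKMT5A and -2.21 without the first. PCDHGA6 had 9.52, 17.3 and 19.7 in shNC and 3.14, 0 and 0 in the others. All its reads in the latter came from the first library. The log2 fold change of PCDHGA6, -3.30 ± 0.56, became -3.99 without that library. It became -2.96 without either of the other libraries labelled shKMT5A. PCDHGA7 and PCDHGA9 had shNC means of 4.23 and 5.15 and no reads in the libraries labelled shKMT5A. The log2 fold change of PCDHGA7, -2.13 ± 0.47, became -1.54 without the third shNC library.

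PCDHGC3 was the listed C-type gene. It had 18.1, 37.5 and 23.6 normalized counts in shNC and 6.28, 9.21 and 1.99 in the libraries labelled shKMT5A, 4.53-fold lower, with reads in all 6. Its mean of 5.83 in the libraries labelled shKMT5A was the highest among the 24. As a share of its shNC level PCDHB14 kept more, and the difference between PCDHGC3 and the rest was not tested. The gamma constant exons, 2181 bases, are annotated to every gamma gene, and 42.7% to 72.4% of a member's exonic bases were its own. A read from the constant exons could therefore be given to any of them or to none.

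Levels between genes were compared per kb of exon that no other gene shares. On this scale the shNC means of clustered members ran from 1.30 normalized counts per kb for PCDHGA7 to 19.9 for PCDHB2, with PCDHB8 next at 18.3 and then PCDHB16 at 8.996. The median was 4.92 in the beta and 5.16 in the gamma array. These values divide all reads of a gene by its own exon alone, and over all its exon bases the medians were 4.42 and 2.83, so the order of the arrays turns. Per kb of all exon PCDHB10, at 7.42, also passed PCDHB16, at 6.75, while PCDHB2 and PCDHB8 stayed first with 16.9 and 16.8. CDH24 stood at 280 on the same scale, so every clustered gene was a minor transcript beside it.

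**Figure D2:**
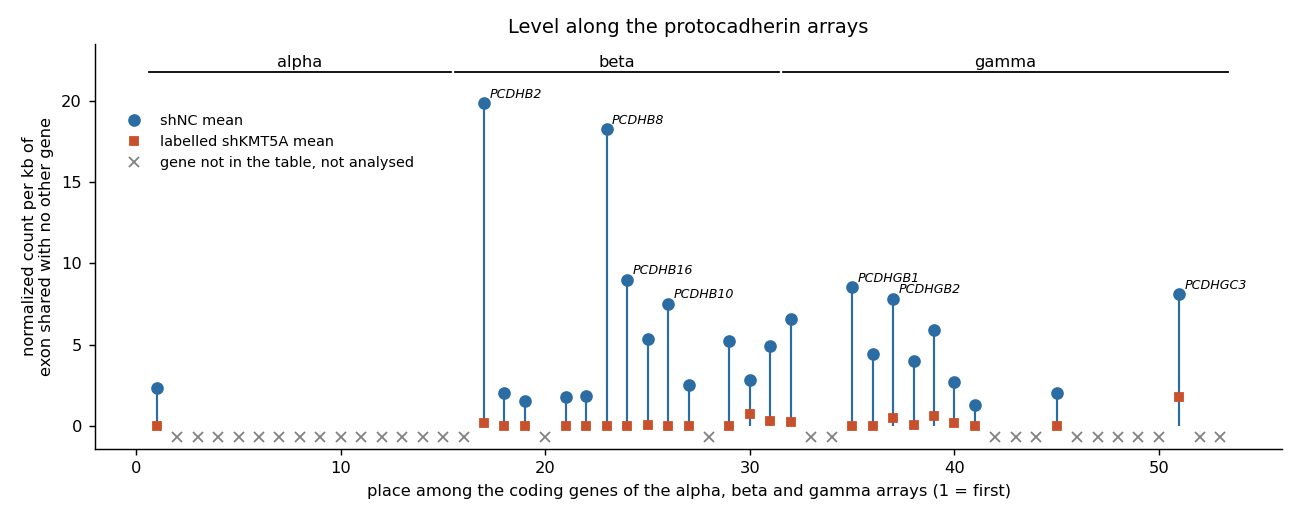
Mean normalized count per kb of exon that no other gene shares, against the place of each gene among the coding genes of the arrays, for shNC (circles) and the libraries labelled shKMT5A (squares), with crosses for genes that are not in the table. The shNC means reach 19.9 at PCDHB2 and 18.3 at PCDHB8, and the means of the libraries labelled shKMT5A stay near 0 along all 3 arrays.

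Of the unclustered members 7 were higher and 2 lower in the libraries labelled shKMT5A. The 9 genes, of 58 coding genes that match the rule, summed to 1252, 1344 and 1313 normalized counts in shNC and to 2804, 2978 and 2651 in the libraries labelled shKMT5A, 2.16-fold higher. CDH24 made up most of the shNC sum and CDH11 most of the other. All 9 had groups that did not overlap, as had 99.7% of all genes (57.2% as higher), and 3 were at 0 in every shNC library, as were 4.37% of genes in the table. That is 126 genes, which can only be among the 1656 higher genes of the table.

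PCDH11X is a delta protocadherin on the X chromosome, known in brain. It had 0, 1.93 and 0 normalized counts in shNC and 30.4, 14.3 and 26.8 in the libraries labelled shKMT5A, a ratio of 37.0 with a counting interval of 9.87 to 312. PCDH11X thus went opposite to all 24 clustered protocadherins. A share of 33.8% of its 100-base windows also occurs in a transcript of another gene, most often PCDH11Y. Reads from those windows cannot be told apart.

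Among classical cadherins CDH11 gave the largest value. CDH11, a type II cadherin of mesenchymal cells and osteoblasts, had 68.6, 56.8 and 52.1 normalized counts in shNC and 1757, 1927 and 1656 in the libraries labelled shKMT5A. That was 30.1-fold higher, a log2 fold change of 4.89 ± 0.11 (SE), and per kb of own exon it went from 4.51 to 136. CDH2, the N-cadherin of neural and mesenchymal cells, CDH5, the VE-cadherin of endothelial junctions, and CDH17, the cadherin of intestinal epithelium, were at 0 in all shNC libraries. Their means in the libraries labelled shKMT5A were 5.78, 4.74 and 4.10, at least 5.98-fold, 4.91-fold and 4.25-fold higher. DESeq2 on the recovered reads of 5 libraries did not call these 3, at log2 fold changes of 3.97, 3.50 and 3.51. Its adjusted p was 0.0795 for CDH2, 0.173 for CDH5 and 0.175 for CDH17. That fit left out the third library labelled shKMT5A and set its own scaling, and what cost the calls was not tested. EdgeR on the same reads called all 3, and in the authors' deposited table their adjusted p-values are 0.00549, 0.0147 and 0.0288.

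CDH24, a type II cadherin that binds catenins, was the most abundant member in shNC. It had 965, 1090 and 1091 normalized counts in shNC and 424, 432 and 407 in the libraries labelled shKMT5A, 2.49-fold lower. With a log2 fold change of -1.31 ± 0.07 (SE) it had the smallest change of all members.

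Both listed desmosomal cadherins were higher. DSG3, the desmoglein of stratified epithelia that is the autoantigen of pemphigus vulgaris, had 21.0, 12.5 and 16.7 normalized counts in shNC and 177, 185 and 174 in the libraries labelled shKMT5A, 10.7-fold higher. DSG4, the desmoglein of the hair shaft, had 43.8, 38.5 and 40.3 in shNC and 397, 404 and 367 in the others, 9.53-fold higher. The 2 genes are neighbours on chromosome 18, 32.9 kb apart. Their log2 fold changes, 3.37 ± 0.20 and 3.22 ± 0.12 (SE), differed by less than their errors combined. Desmocollins had no listed member.

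CLSTN2, a calsyntenin found at synapses, had 154, 144 and 113 normalized counts in shNC and 4.19, 2.05 and 3.97 in the libraries labelled shKMT5A, 40.3-fold lower. Unlike most clustered members it kept reads in each of them. No FAT, CELSR or CDHR gene was in the table.

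**Figure D3:**
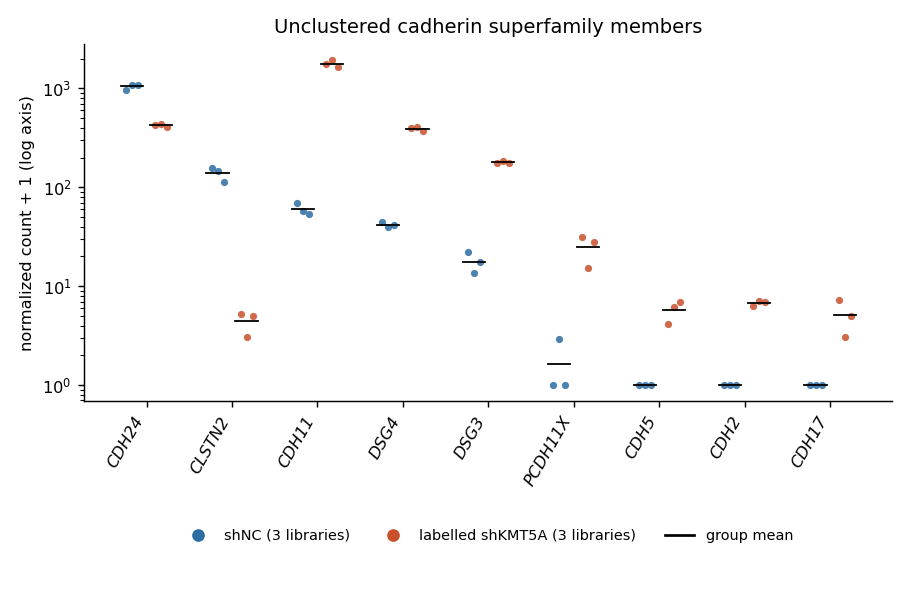
Normalized count plus 1, on a log axis, of the 9 unclustered members, ordered by shNC mean, with 1 point per library and a line at each group's mean of 3. CDH24 and CLSTN2 are lower in the libraries labelled shKMT5A and the other 7 are higher, with no overlap of points in any gene.

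Across members the limma log2 fold change had a median of -3.35 in the clustered genes, -3.43 in the beta and -3.35 in the gamma array, and 2.76 in the unclustered genes, beside 1.13 over the whole table and -1.66 over its 1229 lower genes. With genes at 0 set to their bound, the median log2 ratio was -3.73 in the clustered genes, -4.12 in the beta and -3.73 in the gamma array, and 2.58 in the unclustered genes. By limma, 24 of 24 clustered genes passed an adjusted p of 0.05 as lower, with 42.6% of the table. In the unclustered genes 7 passed as higher, with 57.4% of the table. Since 99.9% of the table passed in one direction or the other, these counts say nothing about the members. All 33 passed the filter of a mean of 1 normalized count. Other scalings, edgeR with TMM included, lowered the median log2 fold change of the whole table by 0.24 to 0.62. DESeq2 on 5 libraries, with its own scaling, brought that median to 0.10. No member changed direction under any of these.

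**Figure D4:**
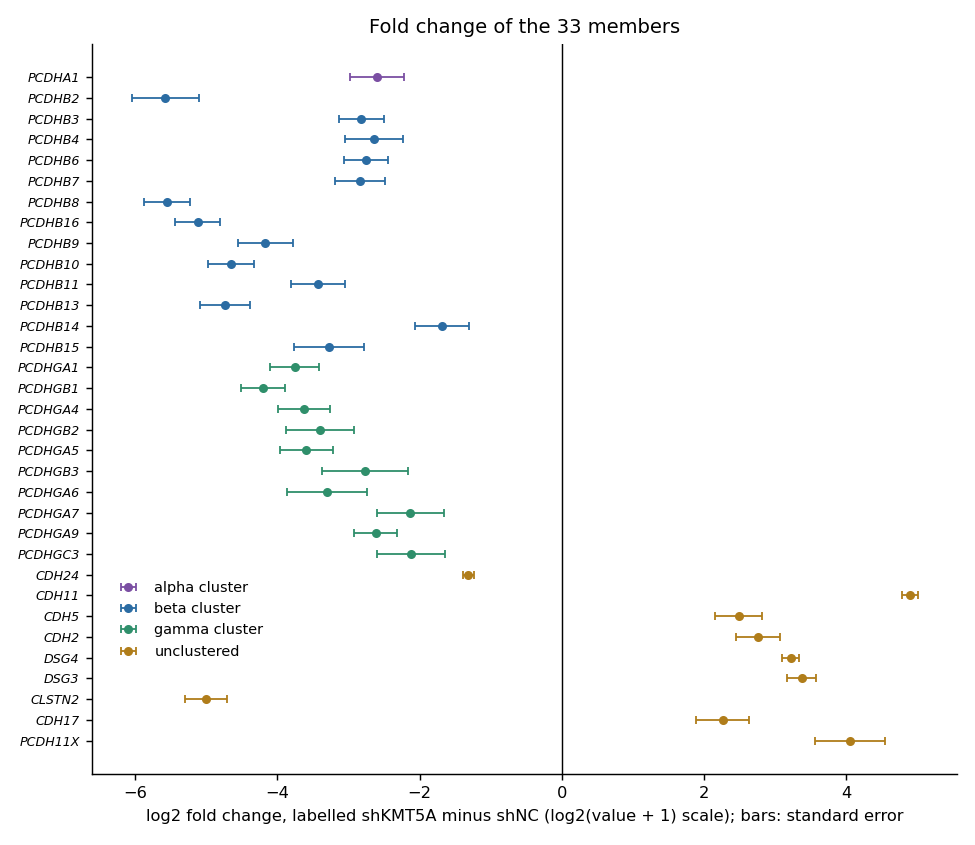
Limma log2 fold change of the 33 members, libraries labelled shKMT5A minus shNC, on the log2(value + 1) scale, coloured by array, with bars for the standard error. All 24 clustered members lie left of 0, between -5.57 and -1.68, and the unclustered members run from -5.00 for CLSTN2 to 4.89 for CDH11.

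Genes that work with cadherins were read from lists chosen with earlier results known. The 11 listed genes of the 5 lists described next all passed limma's adjusted threshold, with a largest adjusted p of 4.53e-07 for WASF1. The smallest absolute log2 fold change was 1.04, for EVPL. TMM, table-total and equal-median scaling shifted the table median by less. DESeq2 on 5 libraries, with its own scaling, took that median from 1.13 to 0.10, and its value for EVPL is not given here. As 99.9% of the table passed, and 10.2% of all coding genes are in it, these counts say nothing particular about the lists. Of 18 catenins and plaque proteins 2 were in the table. DSP, the desmoplakin that ties desmosomes to keratin filaments, rose from 1384 ± 79.5 to 5735 ± 178 normalized counts (SD, n = 3), in the same direction as DSG3 and DSG4. EVPL, envoplakin of the cornified envelope, fell from 990 ± 61.5 to 481 ± 20.5. Of 12 transcription factors that repress cadherin genes only ZEB1, a repressor of E-cadherin, was in the table, and it rose from 24.4 ± 4.15 to 253 ± 18.7.

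Of 24 regulators linked to the choice of clustered protocadherins 3 were in the table, 2 higher and 1 lower. SMCHD1, a chromatin protein that in mice represses clustered protocadherins, rose from 2318 ± 107 to 5402 ± 342 normalized counts (SD, n = 3). TRIM28, the corepressor of KRAB zinc finger proteins, rose from 1581 ± 97.4 to 9490 ± 546. UHRF1, which guides maintenance of DNA methylation, fell from 2382 ± 121 to 1113 ± 22.6. Only UHRF1 went the way of the clustered protocadherins, and the part of any of the 3 in that result was not tested.

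Of 24 partners and proteases 4 were in the table. WASF1, ABI1 and CYFIP2 are parts of the WAVE complex that drives actin branching, and PIK3R1 is a regulatory subunit of phosphoinositide 3-kinase. WASF1 rose from 310 ± 31.0 to 737 ± 71.3 normalized counts, ABI1 from 446 ± 26.2 to 953 ± 62.5 and PIK3R1 from 468 ± 50.2 to 2101 ± 115, while CYFIP2 fell from 1635 ± 81.5 to 605 ± 18.0 (SD, n = 3). The WAVE complex genes thus moved in different directions. Of 25 genes listed as neighbours of the chromosome 5 arrays TMCO6 alone was in the table, lower at 193 ± 9.59 against 441 ± 33.9. NRG2, the other gene of the table within 1 Mb before the arrays, was not on this list.

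Markers of other cell types moved in both directions. The table held 6 of 19 genes that mark fibroblasts or endothelium, 3 higher and 3 lower, and their summed level was 172 to 181 normalized counts in shNC and 95.3 to 121 in the libraries labelled shKMT5A. CDH5 is one of them. LUM, a matrix proteoglycan, went from a mean of 111 to 0.341, and DCN, another, was at 0 in all libraries labelled shKMT5A. COL3A1, a fibrillar collagen, went the other way, from a mean of 14.2 to 65.7, and ACTA2, smooth muscle actin, from 16.8 to 37.3. Of 23 neuronal and glial markers 3 were in the table, 2 higher and 1 lower, with sums of 621 to 697 in shNC and 1165 to 1368 in the others. Of 17 leukocyte markers 4 were in the table, 1 higher and 3 lower, with sums of 489 to 548 and 114 to 139. CORO1A made up most of both sums, with means of 490 in shNC and 105 in the others. CD8A was the higher one, from a mean of 0.638 to 13.2. The colon epithelial list, with 3 higher and 4 lower, holds CDH17. The part of any of these lists in the members' values was not tested.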

How the data were processed

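Members and gene lists were chosen with earlier results of these data known. Per the labels, 3 shNC and 3 shKMT5A libraries were made from TRIzol total RNA of RKO cells with a commercial kit. Tools named in the submitters' processing notes, with no order, are HISAT2 (2.0.5), featureCounts (1.5.0-p3), DESeq2 (1.20.0), fastp and CASAVA (1.8), with GRCh38. Each deposited signal value is a gene's reads scaled by the authors with a single factor per library: in each column 100% of values were a whole number of reads (within 0.001), 1 read being worth 0.952 to 1.05. The deposited log2 fold changes and the p-values, adjusted ones included, are the authors' own.

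Because the values are normalized, limma 3.58.1 (trend, robust, R 4.3.3) was fitted to log2(value + 1) of all 2885 genes, with Benjamini-Hochberg adjustment over all of them, a mean of at least 1 and a threshold of 0.05. A fold change on this scale understates the change of low genes. Folds of means use the normalized counts; with 1 to 3 reads in a group a 95% exact interval is given. These intervals cover counting error only. The floor of 3 reads covers that of the group at 0 alone, so a bound leaves out the counting error of the other group. Tests on whole reads (edgeR 4.0.16, DESeq2 1.42.0) used 5 libraries, without the third labelled shKMT5A. DESeq2 set its own scaling from the genes of the table. Shared exons and 100-base windows come from GENCODE 29, promoters from RefSeq. Values in every library are printed for members with a mean of at least 10 in either group. Fits were tested on simulated data. Alternatives covered scaling, pseudocount, filter, test and leaving out each library.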

Additional observations from a re-analysis of the deposited data

How the results depend on the processing

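Of 543 values of single members under the alternatives, 540 kept their direction and their side of the threshold, 0 reversed, and CDH2, CDH5 and CDH17 lost their call with DESeq2 on 5 libraries. Because the authors chose every gene of the table on this contrast, this was largely fixed in advance. By limma 99.9% of the table passed, so the count says nothing particular about the members. DESeq2 left 4 members higher, all unclustered (4), and 786 genes of the table higher; its median log2 fold changes were -6.44 (beta), -6.08 (clustered), -5.85 (gamma), 3.50 (unclustered) and 0.10 (table). With a mean of at least 10 normalized counts 4 members were higher, the unclustered 4, and 11 lower, 9 clustered, 6 beta and 3 gamma, since fewer genes were tested; medians were -4.93 (beta), -4.65 (clustered), 3.30 (unclustered) and 1.09 (table). EdgeR with TMM scaling gave -6.00 (beta), -5.85 (clustered), -5.47 (gamma), 4.28 (unclustered) and 0.51 (table). With the authors' scaling, an alternative chosen after seeing the data, edgeR gave -5.72 (beta), -5.58 (clustered), -5.06 (gamma) and 4.87 (unclustered). A pseudocount of 0.1 gave -6.61 (beta), -5.90 (clustered), -5.30 (gamma) and 4.92 (unclustered), and 10 gave -1.30 (beta), -1.20 (clustered), -1.20 (gamma), 0.66 (unclustered) and 0.81 (table). Unclustered and table medians were 2.51 and 0.53 with TMM scaling, 2.66 and 0.89 with equal medians, and 2.52 and 0.56 with table totals. The cause was not tested where none is given.

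Leaving out each library in turn, medians ran from -3.77 to -3.21 (beta), -3.59 to -3.18 (clustered), -3.49 to -3.16 (gamma), 2.72 to 2.82 (unclustered) and 1.11 to 1.13 (table), and the counts of members called stayed at 26 lower and 7 higher. Over the whole table the counts also barely moved, at 1225 to 1228 lower and 1647 to 1653 higher. Deviations of same-numbered libraries correlated at -0.0358, -0.0307 and 0.00837, so no shared deviation was seen. These values cannot show whether libraries with the same number were made together. With the replicate block 26 members were lower and 7 higher. A fit without pseudogene and antisense members was not run, as every member is annotated as coding. Depth limits the clustered genes: 49 reads in all remained in the libraries labelled shKMT5A, against 1397 in shNC, so a member at 0 was not detectable at this depth and is not shown to be silent.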
